A study of Homo sapiens with 27 samples.

Results

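The PGC1 coactivators and the regulators of mitochondrial biogenesis that work with them were followed as 8 genes, PPARGC1A, PPARGC1B, PERM1, ESRRA, NRF1, GABPA, TFAM and TFB2M, out of 13523 genes in the deposited table. They were picked by symbol, with earlier results of these data in view, and all 8 passed the filter on low values that left 13052 genes for testing. The cells were 501mel, a human melanoma line known for high MITF, grown with serum. RNA was sequenced from the 3′ ends of transcripts (QuantSeq Forward kit), and values are normalised read counts per gene.

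Labels gave 9 groups of 3 libraries. WT cells were non-treated, kept 12 h in HBSS, a saline that has glucose but no amino acids, or kept 12 h in 250 nM Torin1, an inhibitor of the mTOR kinase (here WT, WT HBSS and WT Torin). TFE3 KO, TFEB KO and TFE3 and TFEB double KO (DKO) cells were kept 12 h as controls or 12 h in 250 nM Torin1. Knockouts were made with Cas9 protein and a guide RNA and grown as single-cell clones, and per the study TFE3 KO and TFEB KO were sequenced as 1 clone each and DKO as 1 line, so that clone and genotype cannot be told apart. No source says that libraries of a group came from separate cultures, and p-values measure only the spread between these libraries. All 13523 values of WT HBSS replicate 3 were repeated under the label WT Torin replicate 1. Neither copy was used, which leaves n = 2 for these groups and n = 3 for each of the other 7.

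PGC1α (PPARGC1A) and PGC1β (PPARGC1B) bind no DNA themselves. They are recruited by transcription factors, among them the orphan receptor ERRα (ESRRA), nuclear respiratory factor 1 (NRF1, which is not the similarly named NFE2L1) and GABPA, the DNA-binding subunit of nuclear respiratory factor 2, and raise transcription of nuclear genes for respiratory chain subunits and for TFAM and TFB2M, which start transcription of mitochondrial DNA. PERM1 is a regulator induced by PGC1 and ERR, best known from muscle, and in melanocytes and melanoma PPARGC1A is a known target of MITF, the relative of TFEB and TFE3.

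In hg38, PPARGC1A (ENSG00000109819) lies on chromosome 4 from 23755041 to 23904089 on the minus strand, PPARGC1B (ENSG00000155846) on chromosome 5 from 149730298 to 149855022 on the plus strand and PERM1 (ENSG00000187642) on chromosome 1 from 975198 to 982117 on the minus strand. ESRRA (ENSG00000173153) lies on chromosome 11 from 64305497 to 64316743 (plus), NRF1 (ENSG00000106459) on chromosome 7 from 129611720 to 129757082 (plus) and GABPA (ENSG00000154727) on chromosome 21 from 25734570 to 25772460 (plus). TFAM (ENSG00000108064) lies on chromosome 10 from 58385345 to 58399220 (plus) and TFB2M (ENSG00000162851) on chromosome 1 from 246540561 to 246566261 (minus).

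RefSeq promoter windows (GRCh38.p14, 250 bases before to 50 after a start) were found for 7 of the 8 genes, 9 windows in all, and not for NRF1. The 250 bases before the start are shown for the 3 coactivators, for ESRRA and for TFAM, because these genes moved in different directions between the same groups of libraries. Capitals mark matches to 8 motifs searched on both strands of the whole windows. The first PPARGC1A window (chr4:24472906-24473155, minus strand) lies upstream of the gene span given above, and the second (chr4:23881102-23881351, minus) inside it. The others are the PPARGC1B window (chr5:149771690-149771939, plus), the first PERM1 window (chr1:982094-982343, minus), the ESRRA window (chr11:64305274-64305523, plus) and the TFAM window (chr10:58385160-58385409, plus). The PPARGC1B window lies inside the gene span, downstream of its first base at 149730298.
PPARGC1A, first window: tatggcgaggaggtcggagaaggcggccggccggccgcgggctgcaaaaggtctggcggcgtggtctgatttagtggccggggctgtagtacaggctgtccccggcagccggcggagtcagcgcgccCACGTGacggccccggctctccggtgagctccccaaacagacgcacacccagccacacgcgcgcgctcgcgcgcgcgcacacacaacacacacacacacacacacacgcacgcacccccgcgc
PPARGC1A, second window: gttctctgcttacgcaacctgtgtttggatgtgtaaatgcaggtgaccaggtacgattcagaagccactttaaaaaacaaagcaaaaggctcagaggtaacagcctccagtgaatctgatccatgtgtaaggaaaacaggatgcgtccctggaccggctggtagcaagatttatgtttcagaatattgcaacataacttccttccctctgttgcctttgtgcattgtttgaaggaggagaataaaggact
PPARGC1B: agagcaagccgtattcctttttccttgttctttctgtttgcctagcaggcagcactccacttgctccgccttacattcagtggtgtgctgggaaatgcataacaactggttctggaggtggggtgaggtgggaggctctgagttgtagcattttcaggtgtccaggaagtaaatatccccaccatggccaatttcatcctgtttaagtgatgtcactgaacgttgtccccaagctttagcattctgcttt
PERM1, first window: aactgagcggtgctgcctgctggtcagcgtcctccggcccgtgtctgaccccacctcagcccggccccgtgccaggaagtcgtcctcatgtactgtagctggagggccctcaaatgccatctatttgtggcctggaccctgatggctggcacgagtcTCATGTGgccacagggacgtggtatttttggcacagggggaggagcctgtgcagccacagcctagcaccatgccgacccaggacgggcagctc
ESRRA: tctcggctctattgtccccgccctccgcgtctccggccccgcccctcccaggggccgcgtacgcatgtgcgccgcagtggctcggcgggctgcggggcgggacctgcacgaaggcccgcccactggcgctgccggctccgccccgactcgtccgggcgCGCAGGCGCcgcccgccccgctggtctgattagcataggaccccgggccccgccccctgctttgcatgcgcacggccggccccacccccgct
TFAM: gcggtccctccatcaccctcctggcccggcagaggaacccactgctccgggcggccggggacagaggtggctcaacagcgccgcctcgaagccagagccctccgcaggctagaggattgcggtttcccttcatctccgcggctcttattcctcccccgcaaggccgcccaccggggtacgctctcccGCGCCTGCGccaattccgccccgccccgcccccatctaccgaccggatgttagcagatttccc

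The first PPARGC1A window held the E-box CACGTG, core letters bound by the MITF family, at position -123 from the start, and 7.26% of all 35116 windows of this length held it. This window (from 24472906) lies far outside the gene span, which ends at 23904089. Which start of PPARGC1A these cells use was not measured. The first PERM1 window held the M-box TCATGTG at -93, a motif in 2.92% of windows. The exact letters CACGTG are not contained in this M-box. The paper nevertheless reports that all MITF family members bind the Deptor gene at a motif that holds TCATGTG. The NRF1 motif CGCANGCGC (7.47% of windows) was in the windows of ESRRA at -92, of TFAM at -63 and of TFB2M at -16, and the ETS motif CCGGAAG (10.3%), which GABPA binds, was in that of GABPA itself at -66. The second PPARGC1A window, the PPARGC1B window and the second PERM1 window held none of the 8, which also included the cAMP response element TGACGTCA (1.85%), the ATF4 composite TGATGNAA (3.62%), the estrogen-related receptor motif TCAAGGTCA (0.353%) and the YY1 motif AAGATGGCG (1.75%). These matches describe letters in a window, and binding was not measured.

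Libraries held 4147050 to 6526392 reads, and the floor, set at 3 reads since a count of 0 leaves up to that many possible, was worth 0.460 to 0.711. TFE3 was 24.0 ± 0.285 (SD, n = 3) in WT, 6.30 ± 1.27 (n = 3) in TFE3 KO and 6.35 ± 0.470 (n = 3) in DKO. TFEB was 3.25 ± 0.827 in WT, 1.11 ± 0.485 in TFEB KO and 0.661 ± 0.457 in DKO, and it was also low in TFE3 KO at 0.681 ± 0.764 (SD, n = 3 each). Reads at a 3′ end do not read the edited site. Of the markers, all 10 of the melanocyte list were in the table with a summed value of 6370 to 16256, and none of 5 endothelial or 6 muscle markers was. Of 6 keratinocyte, 6 fibroblast and 6 immune markers, 1 (KRT10), 3 and 1 (CD68) were in the table, with sums of 48.1 to 117, 0.624 to 7.38 and 29.5 to 74.2, and KRT5, KRT14 and PTPRC were not. The summed melanocyte value was 7388 to 7568 in WT, 16071 to 16256 in WT HBSS and 9090 to 9361 in WT Torin, and that of the immune list, CD68 alone, 29.5 to 43.5, 50.6 to 63.0 and 53.4 to 62.8. KRT10 was 76.1 to 117 in WT, 102 to 112 in WT HBSS and 62.8 to 64.9 in WT Torin. The melanocyte sum and CD68 lay above WT in both treatments and KRT10 below WT with Torin, and their part in the results was not tested.

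The same 8 genes split by condition. In HBSS, PPARGC1A was several times its WT level, PERM1, ESRRA and GABPA rose, and PPARGC1B and TFAM fell. Under Torin, PPARGC1B and TFAM fell in all 4 genotypes and PERM1 rose in 3 of them. Without treatment PPARGC1A was lower in TFE3 KO and higher in TFEB KO than in WT, and did not pass in DKO. All p-values named here are 2-sided, from limma on log2(value + 1), adjusted by Benjamini-Hochberg over the 13052 genes, and a gene is said to rise or fall where that p was under 0.05. Log2 fold changes are on that scale, which draws low values towards 0. The genes were chosen with results known, so these p-values are not independent support, and no value tells fewer cells apart from less RNA per cell. PERM1 passed the filter on low values only through groups where it is higher.

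PPARGC1A was 25.1, 29.9 and 27.7 in the 3 WT libraries and 199 and 208 in the 2 WT HBSS libraries. The HBSS libraries stood above every other library, and the next highest was a TFEB KO Torin library at 62.6. The mean was 204 ± 6.35 (SD, n = 2) in HBSS against 27.6 ± 2.38 (n = 3) in WT, 7.38 times as high, with a log2 fold change of 2.84 ± 0.16 (SE). This difference was already known when the genes were picked, so it is given as a description.

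WT Torin libraries had 22.3 and 30.1 for PPARGC1A, one on either side of the WT range, and the log2 fold change was -0.08 ± 0.16 (adjusted p = 0.701). It ran from -0.29 to 0.92 over the alternatives and passed in none of them. The highest came with the repeated column, PPARGC1A at 214, counted as WT Torin. HBSS was thus 7.77 times WT Torin in mean value. Over 36 alternatives the log2 fold change of HBSS over WT ran from 2.78 to 2.90, and that of HBSS over WT Torin from 1.93 to 3.14. Both rest on HBSS values known beforehand, so these ranges are a description and no sign of stability.

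TFE3 KO had 17.1, 17.8 and 16.2 for PPARGC1A, below all WT libraries, a mean of 17.0 ± 0.791 (SD, n = 3). The log2 fold change against WT was -0.66 ± 0.14. TFEB KO had 35.7, 35.0 and 42.9, all above WT, with a log2 fold change of 0.44 ± 0.14. Both differences passed the threshold, but they were known when the genes were picked and are given as a description. The TFEB KO difference did not pass without WT replicate 1 (0.38, adjusted p = 0.115), without WT replicate 3 (0.45, adjusted p = 0.0625) or without TFEB KO replicate 3 (0.35, adjusted p = 0.138). DKO had 24.6, 25.8 and 19.3, which overlapped with WT (log2 fold change -0.25 ± 0.14, adjusted p = 0.287). With the repeated column counted as WT Torin neither single knockout passed (adjusted p = 0.603 and 0.69), while the log2 fold changes stayed at -0.66 and 0.44. That column, with PPARGC1A at 214, is in neither comparison but adds to the spread that the fit shares over all groups.

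Set against each other, the single knockouts had mean PPARGC1A of 17.0 (TFE3 KO) and 37.9 (TFEB KO), or -1.10 ± 0.14 on the log2 scale, also a difference known beforehand and given without a test. MITF, which was 682 ± 5.93 in TFE3 KO and 713 ± 25.3 in TFEB KO (SD, n = 3 each), did not pass between the 2 (log2 fold change -0.06 ± 0.06, adjusted p = 0.473). In DKO MITF was 556 ± 34.9 against 762 ± 37.3 in WT and fell by 0.46 ± 0.06 (adjusted p = 1.79e-07), and in HBSS it was 1423 ± 44.1 (n = 2) and rose by 0.90 ± 0.07 (adjusted p = 1.55e-15).

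With Torin, TFE3 KO libraries had 28.8, 22.9 and 29.8 for PPARGC1A, all above the untreated TFE3 KO libraries and within the spread of WT Torin. PPARGC1A rose there by 0.63 ± 0.14 (adjusted p = 0.000192). That call ended where the repeated column was counted as WT Torin (still 0.63, adjusted p = 0.315). The untreated PPARGC1A values of TFE3 KO and TFEB KO were known when the genes were picked, so the Torin differences in both are a description. In TFEB KO with Torin the values were 62.6, 42.9 and 40.7, 1 of them well above the others, and the rise of 0.33 ± 0.14 missed the threshold (adjusted p = 0.0579), while edgeR and DESeq2 on the recovered reads gave adjusted p = 0.00951 and adjusted p = 0.0203. It also passed with median-of-ratios scaling (0.38, adjusted p = 0.0309) and without TFEB KO replicate 3 (adjusted p = 0.0307), TFEB KO Torin replicate 2 (0.0408), TFEB KO Torin replicate 3 (0.0234) or DKO replicate 3 (0.0468). DKO with Torin had 21.2, 23.3 and 26.0, and the log2 fold change was 0.02 ± 0.14 (adjusted p = 0.908). Among Torin-treated cells, TFEB KO was above WT by 0.86 ± 0.16 (adjusted p = 9.25e-05), which turned to -0.14 (adjusted p = 0.891) with the repeated column as WT Torin, and DKO did not pass against WT (-0.14 ± 0.16, adjusted p = 0.632).

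In order of mean, PPARGC1A ran from TFE3 KO (17.0) through DKO (23.2), DKO Torin (23.5), WT Torin (26.2), TFE3 KO Torin (27.2), WT (27.6), TFEB KO (37.9) and TFEB KO Torin (48.7) to WT HBSS (204). TFE3 KO stood apart from DKO, WT from TFEB KO and TFEB KO Torin from WT HBSS, while the 5 groups from DKO to WT overlapped each with the next, as TFEB KO did with TFEB KO Torin. Over the 9 group means of log2(value + 1), the genes most like PPARGC1A among 9856 were NR2C2 (Pearson r = 0.992), ARIH1 (r = 0.986), PIK3CD (r = 0.982), NR3C1 (r = 0.981) and GABARAPL1 (r = 0.980), a description that rests largely on the HBSS group.

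**Figure D1:**
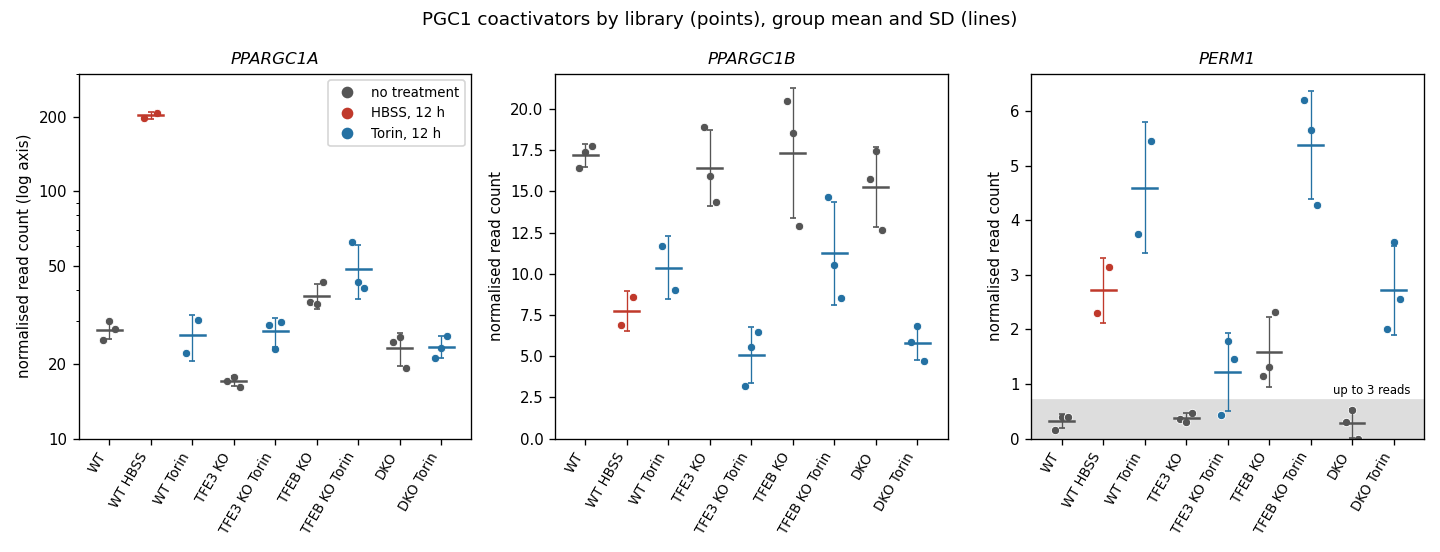
Normalised read counts (y axis, log scale for PPARGC1A, linear from 0 for the others) of the 3 coactivators by group (x axis), with 1 point per library, the group mean as a line and the SD as a bar. PPARGC1A sits at 199 and 208 in HBSS against 25.1 to 29.9 in WT, PPARGC1B is lower in HBSS and in Torin, and PERM1 lies within the grey band of up to 3 reads in WT, TFE3 KO and DKO and above it with HBSS or Torin, apart from 1 TFE3 KO Torin library.

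PPARGC1B went the other way. It was 16.4, 17.4 and 17.8 in WT, 6.90 and 8.58 in HBSS and 11.7 and 9.01 in WT Torin, with no overlap between WT and either treatment. It fell by 1.06 ± 0.23 on the log2 scale in HBSS (adjusted p = 0.000136), to 0.450 of the WT mean. With Torin it fell by 0.69 ± 0.23 (adjusted p = 0.0129), a call lost without WT Torin replicate 3 (-0.52, adjusted p = 0.173).

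None of the knockouts alone moved PPARGC1B past the threshold: the means were 16.4 in TFE3 KO, 17.3 in TFEB KO and 15.3 in DKO against 17.2 in WT, with adjusted p from 0.676 to 0.979. With Torin, TFE3 KO had 3.18, 5.57 and 6.45, DKO 5.85, 6.83 and 4.72 and TFEB KO 14.7, 10.5 and 8.55. All TFE3 KO and DKO libraries with Torin lay below all those of TFEB KO or WT with Torin. With Torin PPARGC1B fell by 1.55 ± 0.21 in TFE3 KO (adjusted p = 1.37e-08), and in DKO it fell by 1.26 ± 0.21 (adjusted p = 1.31e-06).

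In TFEB KO PPARGC1B fell by 0.59 ± 0.21 with Torin (adjusted p = 0.0202) though libraries overlapped, and leaving out TFEB KO replicate 1 or 2 or TFEB KO Torin replicate 2 or 3 ended that call, at adjusted p = 0.118, 0.076, 0.0581 and 0.148. Against WT Torin, PPARGC1B was lower in TFE3 KO Torin (-0.94 ± 0.23, adjusted p = 0.00482) and in DKO Torin (-0.74 ± 0.23, adjusted p = 0.0254). The first call was lost without WT Torin replicate 2 (-0.76, adjusted p = 0.129) or TFE3 KO Torin replicate 1 (-0.69, adjusted p = 0.0566), and the second without WT Torin replicate 2 (-0.57, adjusted p = 0.264), DKO Torin replicate 1 (-0.75, adjusted p = 0.0515) or DKO Torin replicate 3 (-0.62, adjusted p = 0.112). The genes most like PPARGC1B over the 9 groups were IER2 (r = 0.985), KIF3B (r = 0.980), CYB5B (r = 0.978), OIP5 (r = 0.975) and USP14 (r = 0.973).

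PERM1 was at the edge of detection, with 0 to 36 reads a library. It had 1, 2 and 2 reads in WT, 2, 2 and 3 in TFE3 KO and 2, 3 and 0 in DKO, all at or under the floor of 3 reads. In HBSS it had 10 and 15 reads and in WT Torin 16 and 23, and both stood clear of WT. The ratio of summed reads, each scaled by the library's value per read, was 8.91 for HBSS over WT (exact 95% counting interval 3.35 to 29.8) and 14.9 for Torin over WT (5.89 to 48.6), and the intervals cover counting error only. By limma PERM1 rose by 1.49 ± 0.31 in HBSS (adjusted p = 7.98e-05) and by 2.08 ± 0.31 with Torin (adjusted p = 3.57e-07). Every PERM1 value in WT, TFE3 KO and DKO was under 1, so it passed the filter only through groups where it is higher. With only the compared libraries in the fit, PERM1 fell under the filter in both comparisons and has no value. These p-values are thus a description only.

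TFEB KO was the only untreated genotype with PERM1 above 3 reads in its libraries, at 5, 7 and 14 reads, 5.37 times WT (2.03 to 17.9). The rise against WT of 0.95 ± 0.28 (adjusted p = 0.0151) was lost without WT replicate 1 (0.87, adjusted p = 0.0666), without TFEB KO replicate 3 (0.76, adjusted p = 0.0973) and with only the compared libraries in the fit (adjusted p = 0.0677). TFE3 KO was below TFEB KO (-0.89 ± 0.28, adjusted p = 0.0124), a call lost without TFEB KO replicate 3 (-0.69, adjusted p = 0.0893).

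With Torin, TFEB KO reached 36, 36 and 21 PERM1 reads, values of 6.21, 5.65 and 4.28 and the highest mean of any group, though they overlapped with WT Torin (log2 fold change 0.19 ± 0.31, adjusted p = 0.721). DKO with Torin had 13, 19 and 13 reads, 9.90 times untreated DKO (3.94 to 32.0). TFE3 KO with Torin had 2, 8 and 7 reads, 3.22 times untreated TFE3 KO (1.27 to 9.19), and 1 of its libraries stayed among the untreated ones. PERM1 rose by 1.32 ± 0.28 in TFEB KO (adjusted p = 0.000163) and by 1.54 ± 0.28 in DKO (adjusted p = 8.23e-06).

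In TFE3 KO the Torin difference of PERM1, 0.64 ± 0.28, just missed (adjusted p = 0.0523). It passed by edgeR (adjusted p = 0.0376), by DESeq2 (adjusted p = 0.0393), with no filter (adjusted p = 0.0491), with median-of-ratios scaling (adjusted p = 0.0492) and without TFE3 KO Torin replicate 1 (0.93, adjusted p = 0.00886). Against WT Torin, PERM1 was lower in TFE3 KO Torin (-1.37 ± 0.31, adjusted p = 0.00205), which was lost without WT Torin replicate 3 (-1.15, adjusted p = 0.0772). Its most similar genes over the 9 groups were FAM132B (r = 0.965), CD22 (r = 0.961), RAP1GAP (r = 0.954), FN1 (r = 0.937) and MED23 (r = 0.934).

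ESRRA, the receptor ERRα through which PGC1α acts on many respiratory genes, was 73.1, 65.7 and 68.3 in WT and 150.0 and 159 in HBSS. Both HBSS libraries lay far above all others, of which the highest was 93.3. The mean was 155 against 69.0 (2.24 times), a rise of 1.15 ± 0.11 (adjusted p = 3.18e-12). With Torin its log2 fold changes ran from -0.06 to 0.17 over the 4 genotypes, with adjusted p from 0.21 to 0.628. Counting the repeated column, which has ESRRA at 138, as WT Torin made the WT difference 0.45 (adjusted p = 0.0218).

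Between knockouts, ESRRA was 79.8 ± 2.61 in TFE3 KO and 65.2 ± 4.99 in TFEB KO (SD, n = 3 each), without overlap, and higher in TFE3 KO by 0.29 ± 0.10 (adjusted p = 0.0225). That call was lost without TFEB KO replicate 1 (adjusted p = 0.0785), TFEB KO replicate 2 (adjusted p = 0.0894), TFE3 KO replicate 2 (adjusted p = 0.0702) or TFE3 KO replicate 3 (adjusted p = 0.0679). It was also lost with the repeated column as WT Torin (still 0.29, adjusted p = 0.18) or under both labels (still 0.29, adjusted p = 0.172). Neither passed against WT, with 0.21 ± 0.10 for TFE3 KO (adjusted p = 0.205) and -0.08 ± 0.10 for TFEB KO (adjusted p = 0.643).

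NRF1, a factor for genes of the respiratory chain and of mitochondrial transcription, was 20.9, 18.2 and 16.2 in WT, 17.7 and 16.7 in HBSS and 11.02 and 10.90 in WT Torin. HBSS overlapped with WT (log2 fold change -0.09 ± 0.18, adjusted p = 0.727), and Torin lay below both. With Torin NRF1 fell by 0.69 ± 0.18 in WT (adjusted p = 0.0014, or 0.156 with the repeated column, NRF1 at 22.7, as WT Torin), and in DKO it fell by 0.76 ± 0.16 (adjusted p = 9.04e-05), where it went from 15.3, 12.9 and 15.5 to 7.38, 9.10 and 8.07. In TFE3 KO and TFEB KO the Torin differences were -0.22 ± 0.16 (adjusted p = 0.244) and -0.35 ± 0.16 (adjusted p = 0.0788).

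Without treatment NRF1 was 12.8, 11.4 and 11.9 in TFEB KO, below every WT library. It fell by 0.57 ± 0.16 against WT (adjusted p = 0.0114), a call lost without WT replicate 1 (-0.48, adjusted p = 0.0771). The call was also lost with the repeated column as WT Torin (still -0.57, adjusted p = 0.0811). HBSS was above WT Torin by 0.61 ± 0.20 (adjusted p = 0.00886), lost without WT HBSS replicate 1 (0.57, adjusted p = 0.0552), with the repeated column as WT Torin (0.28, adjusted p = 0.365) and with it under both labels (0.41, adjusted p = 0.118).

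GABPA was 6.90, 11.5 and 7.03 in WT and 22.8 and 16.1 in HBSS, with 24 to 99 reads a library over the series. The HBSS libraries were the 2 highest of all, above a TFEB KO Torin library at 15.9. GABPA rose by 1.13 ± 0.29 (adjusted p = 0.00157), lost without WT HBSS replicate 1 (0.89, adjusted p = 0.0542). Against WT Torin, GABPA in HBSS was higher by 0.89 ± 0.32 (adjusted p = 0.0204), lost without WT HBSS replicate 1 (0.65, adjusted p = 0.188), WT Torin replicate 2 (0.85, adjusted p = 0.0916) or WT Torin replicate 3 (0.93, adjusted p = 0.0669), and with the repeated column as WT Torin (0.73, adjusted p = 0.0939) or under both labels (0.59, adjusted p = 0.109). GABPA did not pass with Torin in any genotype (adjusted p from 0.124 to 0.566) or in any knockout against WT (adjusted p from 0.609 to 0.948), although with Torin in TFEB KO it passed without TFEB KO replicate 3 (0.75, adjusted p = 0.0305).

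**Figure D2:**
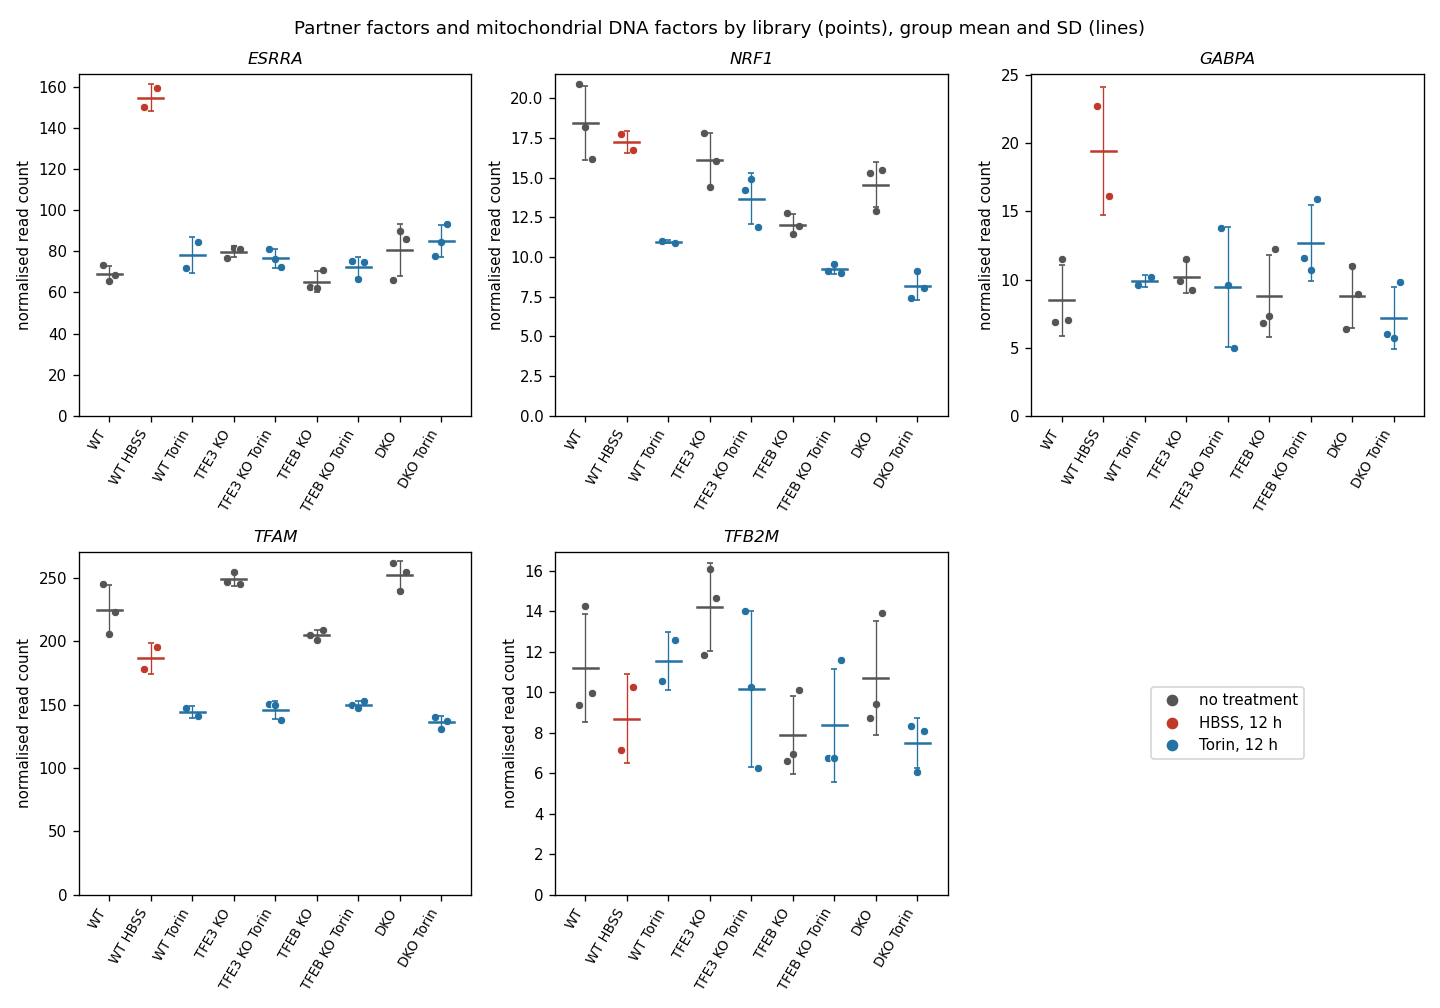
Normalised read counts (y axis, from 0) of the 3 partner factors ESRRA, NRF1 and GABPA and of TFAM and TFB2M by group (x axis), with 1 point per library, the mean as a line and the SD as a bar. ESRRA and GABPA are highest in HBSS, NRF1 is near 10.9 in WT Torin against 16.2 to 20.9 in WT, and TFAM lies between 130.5 and 153 in all Torin libraries.

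TFAM, which packages mitochondrial DNA and starts its transcription, was 245, 206 and 223 in WT, 178 and 195 in HBSS and 148 and 141 in WT Torin. The 3 groups did not overlap. With Torin the log2 fold change of TFAM was -0.63 ± 0.08 in WT (adjusted p = 1.44e-08), -0.77 ± 0.07 in TFE3 KO (adjusted p = 2.15e-12), -0.45 ± 0.07 in TFEB KO (adjusted p = 2.68e-06) and -0.89 ± 0.07 in DKO (adjusted p = 2.81e-14), and Torin libraries lay below untreated ones in each. Torin left all genotypes at like levels, means of 144, 146, 150.0 and 136, from untreated means of 225, 249, 205 and 252 in the same order.

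In HBSS TFAM fell by 0.27 ± 0.08 (adjusted p = 0.00621), a call lost without WT replicate 1 (-0.20, adjusted p = 0.0511) or WT HBSS replicate 1 (-0.20, adjusted p = 0.131). HBSS was above WT Torin by 0.37 ± 0.09 (adjusted p = 0.000676). TFAM was higher in TFE3 KO (247, 255 and 245) than in TFEB KO (205, 201 and 209) by 0.28 ± 0.07 (adjusted p = 0.00279), with no overlap. Against WT it was 0.15 ± 0.07 in TFE3 KO (adjusted p = 0.214), -0.13 ± 0.07 in TFEB KO (adjusted p = 0.256) and 0.17 ± 0.07 in DKO (adjusted p = 0.13).

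TFB2M, the methyltransferase-like factor that helps the mitochondrial RNA polymerase to start, ranged from 6.07 to 16.1 over all 25 libraries with 29 to 105 reads. It was 11.8, 16.1 and 14.7 in TFE3 KO and 6.60, 6.93 and 10.1 in TFEB KO. These did not overlap, and TFB2M was higher in TFE3 KO by 0.79 ± 0.23 (adjusted p = 0.00743). It was 9.37, 14.3 and 9.95 in WT, which overlapped with both, and neither passed against WT (adjusted p = 0.437 and 0.19). Neither HBSS (-0.33 ± 0.26, adjusted p = 0.306) nor Torin in any genotype (adjusted p from 0.0668 to 0.875) took it past the threshold, although with Torin in TFE3 KO it passed without TFE3 KO replicate 1 (-0.61, adjusted p = 0.0464) or TFE3 KO Torin replicate 1 (-0.74, adjusted p = 0.0111), and with only the compared libraries in the fit (-0.50, adjusted p = 0.0457).

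Counted by comparison, HBSS against WT passed 3 higher (PERM1, ESRRA, GABPA) and 2 lower (PPARGC1B, TFAM) of the 7 genes other than PPARGC1A, where 23.6% of all genes passed higher and 24.7% lower. Torin against WT passed 1 higher (PERM1) and 3 lower (PPARGC1B, NRF1, TFAM) of 8, against 20.5% and 23.4% of all genes. Torin in TFE3 KO passed 1 higher (PPARGC1A) and 2 lower (PPARGC1B, TFAM), against 25.4% and 26.0%. Torin in TFEB KO passed 1 higher (PERM1) and 2 lower (PPARGC1B, TFAM), against 17.4% and 21.0%, and Torin in DKO 1 higher (PERM1) and 3 lower (PPARGC1B, NRF1, TFAM), against 25.4% and 26.2%. Many genes of the table passed under these treatments, and the counts are to be read against those shares. PERM1 passed the filter only through groups where it is higher, and the untreated PPARGC1A values of TFE3 KO were known beforehand. Their part in these counts is a description only. HBSS against WT Torin passed 4 higher (ESRRA, NRF1, GABPA, TFAM) and 0 lower of the 7 other than PPARGC1A, against 26.1% and 23.1%.

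TFE3 KO against WT passed 0 higher and 1 lower (PPARGC1A) of 8, against 3.57% and 5.84% of all genes, and TFEB KO against WT 2 higher (PPARGC1A, PERM1) and 1 lower (NRF1), against 7.46% and 7.18%. The PPARGC1A values of both single knockouts were known when the genes were picked, and PERM1 passed the filter only through groups where it is higher. The part of these genes in the counts is a description only. Leaving out WT replicate 1 took the TFEB KO count to 0, and leaving out TFEB KO replicate 3 took it to 1. TFE3 KO against TFEB KO passed 3 higher (ESRRA, TFAM, TFB2M) and 1 lower (PERM1) of the 7 other than PPARGC1A, against 14.3% and 15.6%. With Torin in both, TFE3 KO against WT passed 0 higher and 2 lower (PPARGC1B, PERM1), against 3.41% and 6.23%, TFEB KO 1 higher (PPARGC1A) and 0 lower, against 9.39% and 8.56%, and DKO 0 higher and 1 lower (PPARGC1B), against 5.03% and 7.03%. DKO against WT passed 0 of 8 by limma, where 5.64% of all genes passed higher and 7.49% lower. At an unadjusted p under 0.05 limma gave 2 (ESRRA and TFAM), and at an adjusted p under 0.05 edgeR gave 0 and DESeq2 gave 0. Without WT replicate 1, TFAM passed in DKO against WT (0.23, adjusted p = 0.0433), and without DKO replicate 1, ESRRA did (0.34, adjusted p = 0.0215).

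**Figure D3:**
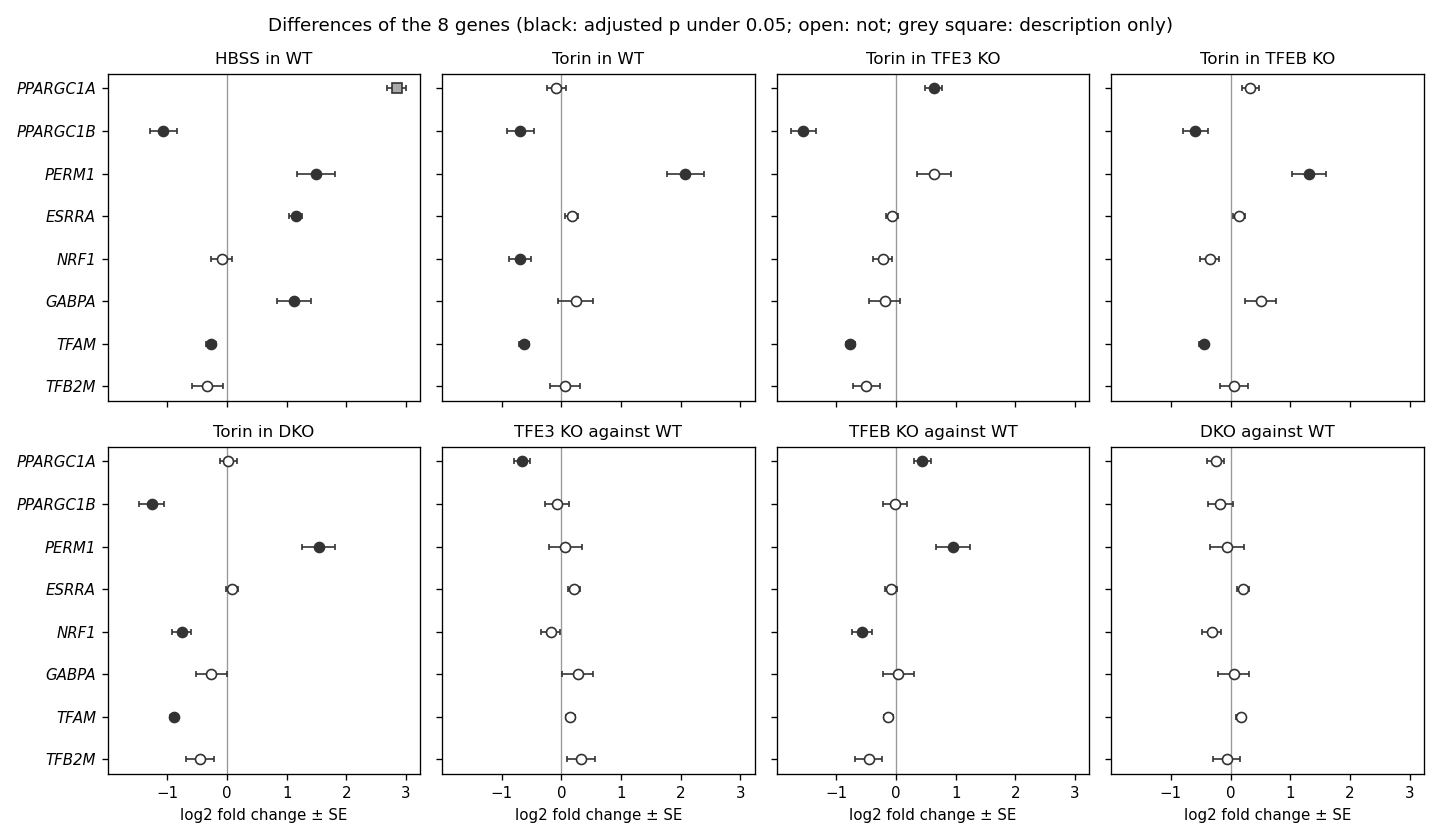
Log2 fold change with its SE (x axis) of the 8 genes (y axis) in 8 comparisons, black where the adjusted p was under 0.05, open where not, and a grey square for PPARGC1A in HBSS, which is shown as a description. PPARGC1A is at 2.84 in HBSS and at -0.08 with Torin in WT, while PPARGC1B and TFAM are below 0 in HBSS and with Torin in every genotype. The PPARGC1A points of TFE3 KO and TFEB KO, against WT and with Torin, are also a description, since their untreated values were known beforehand.

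Whether a knockout changed the response to Torin was tested as the knockout's response minus that of WT. By limma 0 of the 8 genes passed for TFE3 KO, for TFEB KO or for DKO, where 1.06%, 1.16% and 0.506% of all genes passed, and edgeR and DESeq2 also gave 0 each, though DESeq2 set no adjusted p for 6 of these values. At an unadjusted p under 0.05 there were 3 for TFE3 KO, 0 for TFEB KO and 1 for DKO (TFAM). The 3 were PERM1 (-1.44 ± 0.42, adjusted p = 0.0841), PPARGC1A (0.72 ± 0.21, adjusted p = 0.0945) and PPARGC1B (-0.86 ± 0.31, adjusted p = 0.227). The calls in 1 genotype and not in another, such as that of PPARGC1A with Torin, are therefore not shown to differ between genotypes. MITF did pass for TFE3 KO, with a response higher than that of WT by 0.38 ± 0.09 (adjusted p = 0.0235).

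The pathway around the 8 genes was followed with 7 lists of known regulators, partners and targets. Medians are of log2 fold changes, and over all genes they were -0.03 in HBSS and 0.00 with Torin in WT. Of 30 regulators upstream of PGC1, 18 rose and 2 fell in HBSS (median 0.72), beside 23.6% and 24.7% of all genes. They included TFEB (2.85), PRKAB2 (2.04), a subunit of the energy sensor AMPK, ATF4 (1.87), a factor of the response to amino acid lack, and FOXO3 (1.68). With Torin in WT 11 rose and 1 fell (median 0.22), beside 20.5% and 23.4%, led by FOXO1 (1.11), CRTC1 (0.93) and PRKAB2 (0.92).

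Of all genes, 23.6% rose and 24.7% fell in HBSS, and 20.5% rose and 23.4% fell with Torin. Of 20 partners tested, 10 rose and 4 fell in HBSS (median 0.35), with the fatty acid receptor PPARA (1.58), its dimer partner RXRB (1.29) and the coactivator NCOA1 (1.02) among the risers, and 3 rose and 8 fell with Torin (median -0.15). Of 34 oxidative targets, 18 rose and 2 fell in HBSS (median 0.24), while 2 rose and 16 fell with Torin (median -0.19). Among subunits of respiratory complexes, NDUFV2 fell in HBSS (-0.99) while UQCRC2 (0.80), NDUFB5 (0.74) and SDHA (0.66) rose. CYCS, cytochrome c, fell with Torin from 326 ± 31.1 (SD, n = 3) to 87.9 ± 0.362 (n = 2), a log2 fold change of -1.87 (adjusted p = 3.7e-22). In TFE3 KO against TFEB KO 16 of the 34 were higher and 2 lower (median 0.21), at overall shares of 14.3% and 15.6%. Against WT, TFE3 KO had 1 higher and 1 lower (median 0.02), at overall shares of 3.57% and 5.84%. TFEB KO had 0 higher and 7 lower against WT (median -0.19), at overall shares of 7.46% and 7.18%.

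More genes fell than rose among those for mitochondrial DNA and for import under both treatments, beside the same overall shares of 23.6% higher and 24.7% lower in HBSS and 20.5% and 23.4% with Torin. Of 26 genes for transcription and replication of mitochondrial DNA, 6 rose and 14 fell in HBSS (median -0.53) and 4 rose and 13 fell with Torin (median -0.26), among them the nuclease EXOG (-1.26 and -0.84). Of 20 genes for import and folding, 3 rose and 10 fell in HBSS (median -0.28) and 2 rose and 13 fell with Torin (median -0.42), with the chaperonin subunit HSPE1 at -1.34 in both. Of 19 genes for mitochondrial dynamics and mitophagy, 8 rose and 4 fell in HBSS (median 0.03) and 6 rose and 4 fell with Torin (median -0.02), with the mitophagy receptor OPTN at 1.80 and 1.31. Of 21 fat and antioxidant targets, 8 rose and 5 fell in HBSS (median -0.01), led by VEGFA (1.79), and 5 rose and 8 fell with Torin (median -0.11). HBSS and Torin share their WT libraries, so the values are given side by side only.

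**Figure D4:**
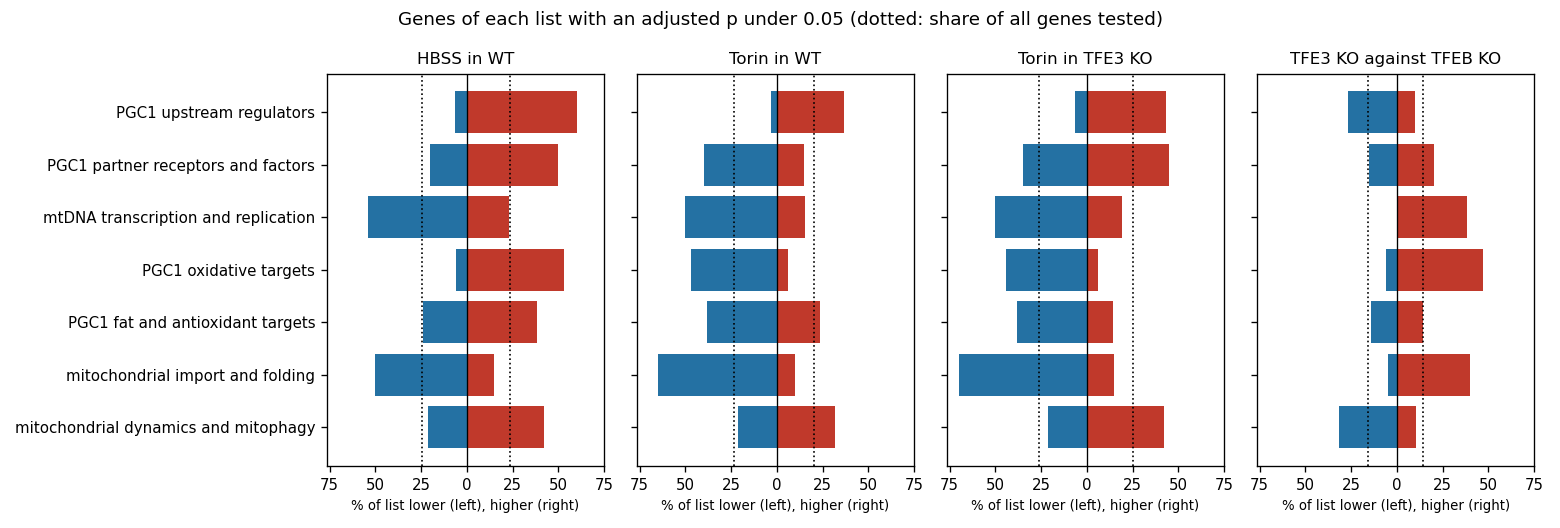
Share of each of 7 gene lists (y axis) with an adjusted p under 0.05, lower to the left in blue and higher to the right in red (x axis, % of genes tested in the list), in 4 comparisons, with dotted lines at the shares over all genes tested. Upstream regulators and oxidative targets are mostly higher in HBSS, where 18 of 30 and 18 of 34 rose, while with Torin in WT 16 of 34 oxidative targets and 13 of 20 import genes fell.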

How the data were processed

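RNA of the melanoma cells was made into 3′ end libraries with a QuantSeq Forward kit. Per the labels and the study's methods, the authors trimmed reads with trim_galore (cutadapt 2.10, FastQC 0.11.9), mapped them to hg38 with STAR 2.7.8a and normalised counts with edgeR. The counter, annotation, scaling and gene filter are not given in the sources used here. The values the authors deposited are a normalised signal for each gene, near the CPM scale but divided by a factor for each library, so that columns sum to 899534 to 1141420. In each column 100% of values were whole multiples of the value of 1 read, so reads were recovered. The tolerance was 0.01 read up to 100 reads and grew with the count above that. At the highest counts any value would pass, so the check says nothing there.

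Genes at 1 or more in at least 3 libraries were kept. log2(value + 1) was fitted with limma 3.58.1 in R 4.3.3 (eBayes with trend and robust), 1 mean per group over 25 libraries, with 16 contrasts and Benjamini-Hochberg adjustment over all 13052 genes. Means and SDs are of untransformed values. The script was tested on simulated data. The 8 genes, the 7 lists and the motifs were chosen with earlier results of these data known. Within lists, the named genes are among the 4 with the largest change that passed and had a mean of at least 5. Likeness ranks the Pearson r over group means, for genes with a mean of at least 5. Coordinates are from GENCODE, promoters from RefSeq. Other settings tried were 0.1 as pseudocount, all genes unfiltered, a minimum of 5, median-of-ratios scaling, edgeR 4.0.16 and DESeq2 1.42.0 on recovered reads, only the compared libraries, a replicate block, the repeated column kept, and each library left out.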

Additional observations from a re-analysis of the deposited data

Results flagged for a closer look

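The column carried under both WT HBSS replicate 3 and WT Torin replicate 1 is in no group. It held values above every WT library for 5 of the 8 genes: PPARGC1A at 214, PERM1 at 2.08, ESRRA at 138, NRF1 at 22.7 and GABPA at 14.2. Its PPARGC1A and ESRRA values lay above all WT Torin libraries, at most 30.1 and 84.4, and near those of WT HBSS, 199 and 208 for PPARGC1A and 150.0 and 159 for ESRRA. Over all genes its log2 values correlated with the group mean at r = 0.992 for WT HBSS and at r = 0.935 to 0.958 for the other 8 groups, a description across genes. The chi-square between its reads and those of 1 other library, per gene, was 3.60 and 3.31 for WT HBSS replicates 1 and 2. For WT Torin replicates 2 and 3 it was 36.2 and 36.3. Other pairs of libraries within a group had 1.91 to 8.86. By these values the column was closer to WT HBSS than to WT Torin. No source says which label is right, and this was not tested further.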

How the results depend on the processing

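With the repeated column kept as WT Torin replicate 1 or under both labels, the number of the 8 genes that passed went from 1 to 0 for TFE3 KO against WT, from 3 to 1 for TFEB KO against WT, from 5 to 3 for TFE3 KO against TFEB KO, from 5 to 3 for HBSS against WT Torin, from 1 to 0 for TFEB KO Torin against WT Torin and from 1 to 2 (NRF1 added) for DKO Torin against WT Torin. PPARGC1A in TFEB KO Torin against WT Torin turned from 0.86 to -0.14 (adjusted p = 0.891, and 0.887 under both labels). That column holds PPARGC1A at 214 beside WT Torin libraries at 22.3 and 30.1, and the fit shares 1 spread over all groups. Of all genes, those that passed went from 6416 to 2694 (3549 under both labels) for HBSS against WT Torin, from 1228 to 484 (500) for TFE3 KO, from 1911 to 765 (800) for TFEB KO and from 1713 to 800 (824) for DKO against WT, from 3907 to 2484 (2555) for TFE3 KO against TFEB KO, from 1258 to 1948 (2030), 2343 to 1489 (1521) and 1574 to 2599 (2676) for the Torin-treated TFE3 KO, TFEB KO and DKO against WT Torin, and from 139 to 24 (41), 151 to 4 (4) and 66 to 21 (28) for the 3 differences in Torin response. Kept as WT HBSS replicate 3, the column changed no count or call of the 8 genes. With only the compared libraries, 66 became 28 for DKO.

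All these counts of the 8 genes include PPARGC1A. In HBSS and in the untreated single knockouts its values helped to choose the genes, so the counts are no sign of stability there. Leaving out 1 library gave counts of the 8 genes of 4 to 6 for HBSS against WT, 3 to 4 for Torin against WT, 0 to 3 for TFEB KO and 0 to 1 for DKO against WT, 4 to 5 for TFE3 KO against TFEB KO, 3 to 5 for Torin in TFE3 KO and 2 to 5 for Torin in TFEB KO, 3 to 5 for HBSS against WT Torin, 1 to 2 for TFE3 KO Torin and 0 to 1 for DKO Torin against WT Torin, and the main count elsewhere. The 5 arose without TFE3 KO Torin replicate 1 and without TFEB KO replicate 3. Of the log2 fold changes so recomputed, 3161 kept their call, 29 lost and 10 gained one, and 0 reversed.

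To look for pairing by replicate number, deviations from the group mean were correlated between libraries of different groups. Of 92 same-number pairs 4 correlated above 0.1 (r from -0.19 to 0.16). Of 185 pairs with different numbers 5 did (r from -0.15 to 0.25). Deviations within a group sum to 0, so these r give only a rough view of pairing. With a replicate block, counts were 6 for HBSS and 4 for Torin against WT and the main count in the other 14 comparisons, and all 128 log2 fold changes kept their call. Pseudocount, filter, scaling and both count tools changed no count by more than 1.5 times. PERM1 alone fell under the filter in 5 fits of only the compared libraries and has no value there, and DESeq2 gave no adjusted p for 6 results. At 3 reads or fewer, PERM1 in WT, TFE3 KO and DKO is limited by depth.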
